A study of Mus musculus with 8 samples.

Results

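DCAF proteins (DDB1- and CUL4-associated factors) are the substrate receptors of the cullin-4 ubiquitin ligases. Of the genes of that name, 10 were followed here, Dcaf5, Dcaf6, Dcaf7, Dcaf8, Dcaf10, Dcaf11, Dcaf12, Dcaf13, Dcaf15 and Dcaf17, in mouse 2-cell embryos. They were taken by symbol, as transcript clusters annotated to 1 member alone, and a member with several clusters would have been represented by the cluster chosen by its highest mean level over the 8 arrays. No such choice arose, since 9 of the 10 genes each had exactly 1 cluster, and these 9 were among the 30700 genes tested. The single cluster of Dcaf12 also names the small RNA gene Gm26049, so no level is given for Dcaf12.

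The arrays measured RNA of 4 groups, with 2 pools per group and 100 embryos per pool, from B6C3F1 x CD1 matings after a stimulated cycle. The full-treatment group received Trim21 mRNA and anti-COPS3 antibody at once, COPS3 being a subunit of the COP9 signalosome; both were injected into the ooplasm at the pronuclear stage. This is the Trim-Away design, in which TRIM21 binds an antibody and directs it and its target to the proteasome. The Trim21 mRNA group received the mRNA without antibody, the antibody-alone group the antibody without mRNA, and the non-manipulated group stayed in the incubator. All were cultured for 28 h to the late 2-cell stage. The age label reads 24 h of in vitro culture, Theiler stage 2 and 1 dpc.

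The labels describe 2-cell formation as normal in the Trim21 mRNA and non-manipulated groups, and as stunted in the full-treatment and antibody-alone groups, where many zygotes stayed undivided. No group with a control antibody was analysed here. Each group was treated on a day of its own and both pools of a group shared that day, so day and group cannot be told apart and every p below covers only the spread between pools of a single day. In pooled embryos, fewer embryos that carry a transcript and less transcript per embryo cannot be told apart.

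A cullin-4 ligase is built on the scaffold CUL4A or CUL4B, which binds the RING protein RBX1 at one end and the adaptor DDB1 at the other. DDB1 holds a DCAF, most often through the WD-repeat propeller of the DCAF, and the DCAF selects the protein to be ubiquitinated. Attachment of NEDD8 to the cullin activates the ligase, the COP9 signalosome removes NEDD8, and CAND1 allows receptors to be exchanged. In mouse oocytes and early embryos cullin-4 ligases are known for roles in survival, maternal clearance and chromatin reprogramming.

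Promoter windows from RefSeq (GRCm38.p6), running from 250 bases before to 50 bases after a gene's start, were present for 8 of the 9 measured members. Dcaf13 had no window. Both strands of each window were searched for the E-box CACGTG, the ETS motif CCGGAAG, the NRF1 motif and the box CCAAT. The ETS motif was found in Dcaf10, Dcaf15 and Dcaf17, against 8.858% of all 32851 windows. CCAAT was found in Dcaf6, Dcaf7, Dcaf11 and Dcaf15 (37.408% of all windows), CACGTG in Dcaf11 (7.15%), and the NRF1 motif in none of the 8 members (0.971%). Dcaf11 had 2 windows and its matches lay in window 2 only, whereas the percentages count single windows. The motifs were chosen with the array values known, and a match describes letters only. Of the members with a window, Dcaf5, Dcaf15 and Dcaf17 were called lower in the full treatment against Trim21 mRNA below. Dcaf5 has no CCGGAAG, and Dcaf10, which has it, did not pass that test at a difference of −1.2. Whether the motif bears on these levels was not tested. The 3 windows with CCGGAAG are printed to show where in them the motif lies. Capitals mark CCGGAAG and, in Dcaf15, also CCAAT, and each window is read 5′ to 3′ on the gene's strand: Dcaf10 is chr4:45341851-45342150 on the plus strand, Dcaf15 is chr8:84104748-84105047 on the minus strand, and Dcaf17 is chr2:71055494-71055793 on the plus strand.
Dcaf10: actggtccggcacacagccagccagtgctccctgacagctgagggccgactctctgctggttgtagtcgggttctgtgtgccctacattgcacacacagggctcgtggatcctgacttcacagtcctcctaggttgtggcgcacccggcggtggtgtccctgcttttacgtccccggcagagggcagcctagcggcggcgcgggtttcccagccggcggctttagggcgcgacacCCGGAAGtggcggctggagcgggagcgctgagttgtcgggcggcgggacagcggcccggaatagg
Dcaf15: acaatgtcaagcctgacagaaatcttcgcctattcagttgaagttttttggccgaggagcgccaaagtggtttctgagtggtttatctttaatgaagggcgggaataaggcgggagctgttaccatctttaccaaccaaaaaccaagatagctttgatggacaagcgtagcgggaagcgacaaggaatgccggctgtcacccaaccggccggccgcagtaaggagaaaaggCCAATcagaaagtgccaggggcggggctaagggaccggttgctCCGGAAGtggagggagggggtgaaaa
Dcaf17: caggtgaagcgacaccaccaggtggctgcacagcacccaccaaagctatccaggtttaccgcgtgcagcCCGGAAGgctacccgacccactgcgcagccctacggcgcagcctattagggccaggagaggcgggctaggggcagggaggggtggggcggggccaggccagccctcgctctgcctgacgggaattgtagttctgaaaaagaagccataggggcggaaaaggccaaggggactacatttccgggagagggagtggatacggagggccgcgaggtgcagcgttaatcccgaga

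Trim21 mRNA was high in both groups injected with it. Trim21 had log2 levels of 10.40 and 10.30 in full-treatment pools and 9.77 and 10.14 in Trim21 mRNA pools, against 6.76 and 6.37 in antibody-alone pools and 6.27 and 5.65 in non-manipulated pools. Cops3 mRNA, whose protein is the target, was at 9.06 and 9.40 in full-treatment pools, 10.00 and 9.97 in Trim21 mRNA pools, 8.85 and 8.86 in antibody-alone pools and 9.50 and 9.52 in non-manipulated pools; Trim-Away acts on the protein, which the arrays do not measure. The 2 antibody-alone pools stood apart from each other, with 4616 genes more than 2-fold apart, against 49 to 809 in the other groups. Summed cumulus and granulosa markers (12 of 14 measured) reached log2 10.90 in antibody-alone pool 2 and 11.53 in non-manipulated pool 2, against 8.99 to 9.62 in the other 6 arrays. The highest markers in those 2 pools were Hsd3b1 (10.32 and 10.35) and Inha (7.67 and 10.32). Fshr was at 4.71 and 4.94 there, and Foxl2 at 4.06 and 3.94. The median over these markers was 5.60 and 5.27 in those pools, against 4.935 to 5.315 in the other 6 arrays. Markers of the labelled stage were present, with median log2 levels per array of 9.90 to 11.86 over 2-cell markers and 12.12 to 13.07 over maternal ones, against 4.24 to 4.84 over sperm and 4.60 to 5.18 over blood markers. Of the 10 measured 2-cell markers, 9 were called higher in the full treatment against Trim21 mRNA and 3 in antibody alone against non-manipulated embryos. Over all genes 8.72% were called higher and 14.5% lower in the first of these comparisons, and 2.76% and 7.29% in the second. Of the 14 maternal markers, 5 were called higher and 1 lower in the full treatment against Trim21 mRNA (11 higher and 0 lower after quantile normalization), and 5 higher and 0 lower in antibody alone against non-manipulated embryos. The part of these differences in the results below was not tested.

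The columns differ in spread, which bears on every direction given for genes at high level. The SD over genes was 2.38 and 2.26 in full-treatment arrays, 2.75 and 2.74 in Trim21 mRNA arrays, 2.50 and 2.69 in antibody-alone arrays, and 2.83 and 2.81 in non-manipulated arrays. Over all genes, full treatment minus Trim21 mRNA had a median of 0.21, and antibody alone minus non-manipulated a median of 0.18. Values below are differences of deposited log2 levels, tested with limma over all genes with Benjamini-Hochberg adjustment; an adjusted p under 0.05 counts as a call. Each was repeated after quantile normalization, cyclic loess and centring of each array on its median, and the calls this ended are given beside the genes named.

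In the full treatment against Trim21 mRNA, both with the injected mRNA, Dcaf13 was 20.3-fold lower as deposited. Dcaf17, Dcaf15 and Dcaf5 were lower by at most 2-fold and Dcaf8 was higher by less than 2-fold. The comparison asks what the antibody changed where TRIM21 was supplied. Of the 9 measured members, 1 rose, 4 fell and 4 did not pass the test, at a median difference of −0.65 as deposited, which turned to 0.27 after quantile normalization and 0.26 after loess. Over all genes 23.2% were called (8.72% higher and 14.5% lower). This share and the all-gene shares below include genes at low level, whereas all 9 members had mean levels above the all-gene median of 5.4975. A fit of the 15351 genes at or above that median called 6388 genes (1772 higher and 4616 lower) and 5 of the 9 members. After quantile normalization or cyclic loess the members' split became 3 higher and 3 lower, and that of all genes moved from 2677 higher and 4448 lower to 3490 and 3708 after quantile normalization. In a fit without the antibody-alone group, chosen after seeing the data, 7 members were called, and with Trim21 mRNA replicate 1 left out 1 was called, Dcaf13.

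Dcaf13 is the mammalian counterpart of yeast Sof1, a component of the small-subunit processome that matures ribosomal RNA, and in mouse embryos it is known as a receptor for the histone methyltransferase SUV39H1 and as needed before the blastocyst stage. Its log2 levels were 9.10 and 8.92 in full-treatment pools, 13.41 and 13.29 in Trim21 mRNA pools, 13.86 and 13.24 in antibody-alone pools and 13.68 and 13.89 in non-manipulated pools. Both full-treatment pools lay more than 4 log2 units below each of the other 6, and the antibody-alone pools spanned those of Trim21 mRNA. Against Trim21 mRNA, Dcaf13 fell by 4.34 ± 0.23 as deposited (log2 difference ± SE, 95% CI −4.89 to −3.79, adjusted p = 7.4e-05), which is 20.3-fold. The difference was −3.52 after quantile normalization and −3.33 after loess, both outside that interval, so the size of the fall depends on the scaling. As deposited, Dcaf13 was number 116 among the 30700 genes ordered from the largest fall.

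**Figure D1:**
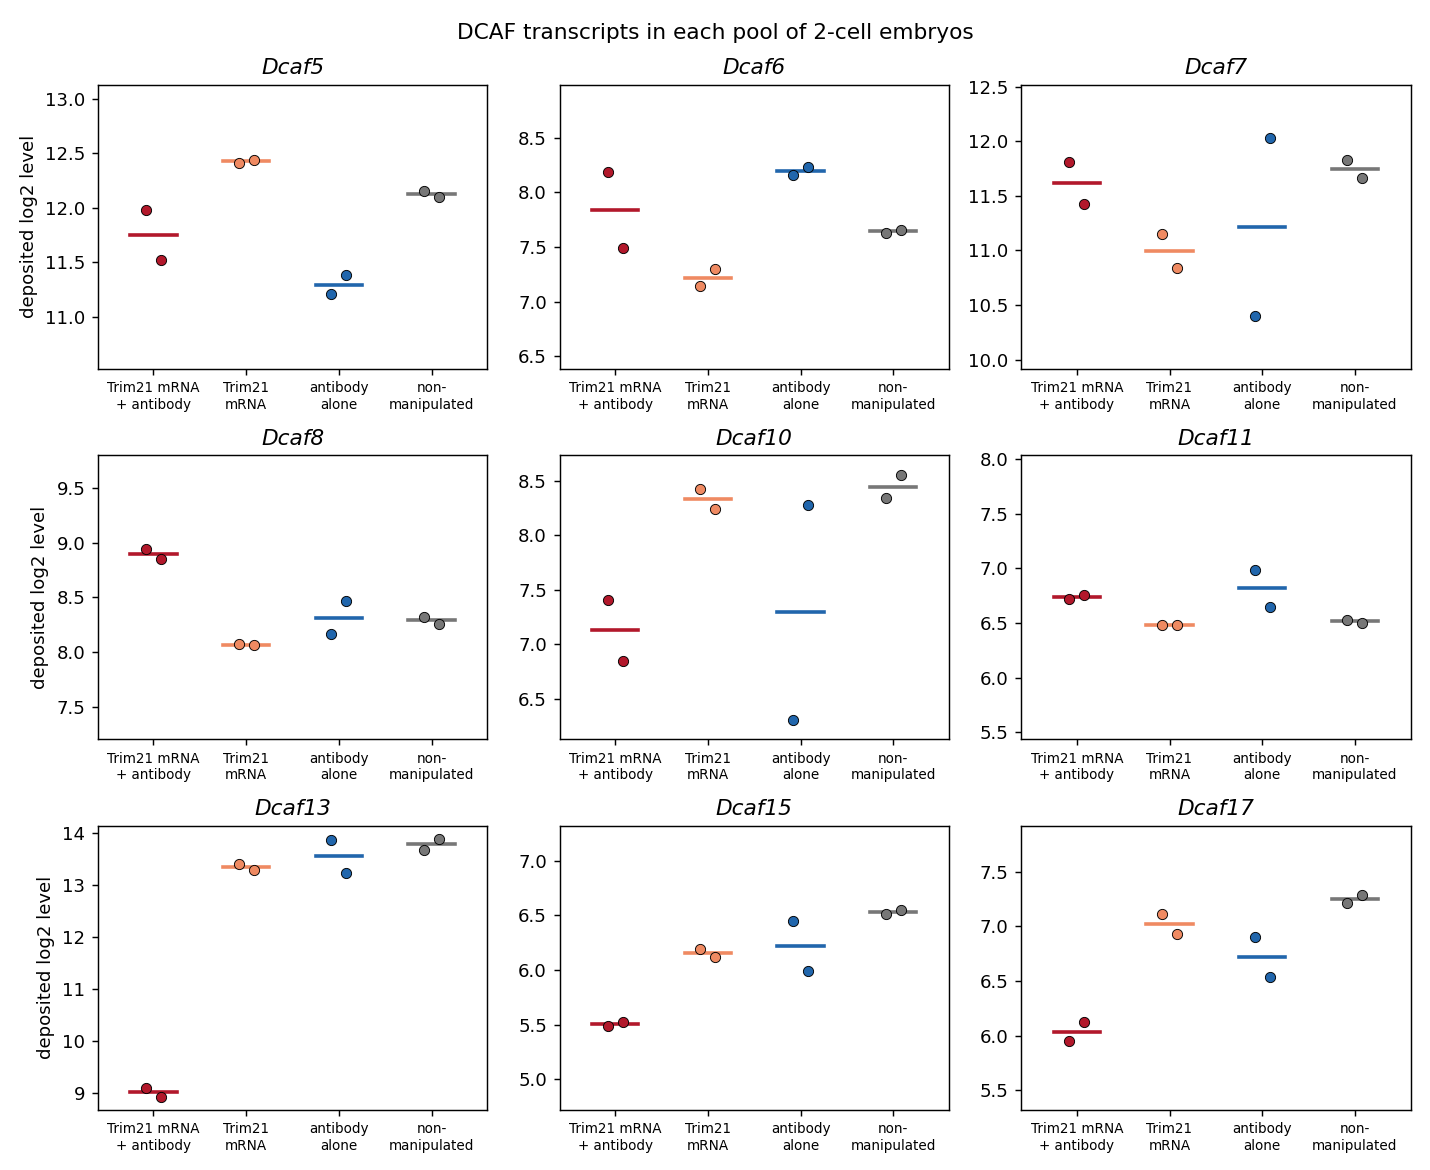
Deposited log2 level (y axis) of each of the 9 measured DCAF genes, 1 panel per gene with its own axis, in the 2 pools of each group; points are pools and bars are group means, in the order full treatment, Trim21 mRNA, antibody alone and non-manipulated. The Dcaf13 panel shows both full-treatment pools at 9.10 and 8.92 and the other 6 pools between 13.24 and 13.89, and the panels of Dcaf7 and Dcaf10 show the antibody-alone pools far apart.

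Dcaf17 is known in mouse for male fertility. It stood at log2 5.95 and 6.12 in full-treatment pools, 7.11 and 6.93 in Trim21 mRNA pools, 6.90 and 6.54 in antibody-alone pools and 7.21 and 7.29 in non-manipulated pools. The full-treatment pools were the lowest 2 of the 8. Against Trim21 mRNA, Dcaf17 fell by 0.985 ± 0.18 (adjusted p = 0.0087), and without Trim21 mRNA replicate 1 the difference was −0.895 with an adjusted p of 0.085.

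Dcaf15 is best known in human cells, where aryl sulfonamide drugs make it bind the splicing factor RBM39. Its log2 levels were 5.49 and 5.52 in full-treatment pools, 6.19 and 6.12 in Trim21 mRNA pools, 6.45 and 5.99 in antibody-alone pools and 6.51 and 6.55 in non-manipulated pools. Again the full-treatment pools were the lowest 2. Their Dcaf15 levels lay below the all-gene medians of the same arrays (5.58 and 5.67), and no detection call was used here. Dcaf15 fell by 0.65 ± 0.19 against Trim21 mRNA (adjusted p = 0.046). The call was lost when any 1 of the full-treatment, Trim21 mRNA or non-manipulated arrays was left out (adjusted p from 0.103 to 0.227).

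Dcaf5 is known in human cells for clearing SWI/SNF complexes that lack SMARCB1. It had log2 levels of 11.98 and 11.52 in full-treatment pools, 12.41 and 12.44 in Trim21 mRNA pools, 11.21 and 11.38 in antibody-alone pools and 12.15 and 12.10 in non-manipulated pools. The antibody-alone pools were the lowest, the full-treatment pools the next and the Trim21 mRNA pools the highest. Dcaf5 fell by 0.675 ± 0.19 as deposited (adjusted p = 0.044), but the sign turned to 0.27 after quantile normalization and to 0.26 after cyclic loess. Without full-treatment replicate 2, or without any 1 of the Trim21 mRNA or non-manipulated arrays, it did not pass (adjusted p from 0.099 to 0.201).

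Dcaf8, linked in humans to an inherited neuropathy, was the member that rose. Its log2 levels were 8.94 and 8.85 in full-treatment pools, 8.07 and 8.06 in Trim21 mRNA pools, 8.16 and 8.47 in antibody-alone pools and 8.32 and 8.26 in non-manipulated pools. Both full-treatment pools were above all the other 6. The difference from Trim21 mRNA was 0.83 ± 0.16 (adjusted p = 0.011), and with each array centred on its median it was 0.625 (adjusted p = 0.057). The adjusted p was 0.051 without full-treatment replicate 1 and 0.087 or 0.088 without either Trim21 mRNA array.

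The other 4 measured members did not pass the test here. Dcaf10, for which no function is given here, had log2 levels of 7.41 and 6.85 in full-treatment pools, 8.42 and 8.24 in Trim21 mRNA pools, 6.31 and 8.28 in antibody-alone pools and 8.34 and 8.55 in non-manipulated pools. The gap of 1.97 between the antibody-alone pools exceeded that of 97.1% of genes, and that gap enters the shared spread. The difference of −1.20 ± 0.58 between the full treatment and Trim21 mRNA had an adjusted p of 0.17, against 0.0046 in a fit without the antibody-alone group, chosen after seeing the data.

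Dcaf7, a scaffold for the kinases DYRK1A and HIPK2, was at log2 11.81 and 11.42 in full-treatment pools, 11.15 and 10.84 in Trim21 mRNA pools, 10.40 and 12.03 in antibody-alone pools and 11.83 and 11.66 in non-manipulated pools. Its antibody-alone pools held the lowest and the highest of the 8 values. The difference between the full treatment and Trim21 mRNA was 0.62 ± 0.48 (adjusted p = 0.36), and the adjusted p was 0.033 in the fit without the antibody-alone group and 0.047 after quantile normalization, where the difference was 1.53.

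Dcaf6, also known as the nuclear receptor coactivator NRIP, had log2 levels of 8.19 and 7.49 in full-treatment pools, 7.14 and 7.30 in Trim21 mRNA pools, 8.16 and 8.23 in antibody-alone pools and 7.63 and 7.66 in non-manipulated pools. The full-treatment pools were 0.70 apart and both were above the Trim21 mRNA pools (0.62 ± 0.24, adjusted p = 0.105). After quantile normalization the difference was 1.06 with an adjusted p of 0.020.

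Dcaf11, which in mouse embryos and stem cells is known to target KAP1 (Trim28) for degradation, which activates Zscan4, had the narrowest range of group means of the 9 (0.34). Its log2 levels were 6.72 and 6.76 in full-treatment pools, 6.48 and 6.48 in Trim21 mRNA pools, 6.99 and 6.65 in antibody-alone pools and 6.53 and 6.50 in non-manipulated pools. The difference between the full treatment and Trim21 mRNA was 0.26 ± 0.16 (adjusted p = 0.27). The pools of the 2 groups were apart for all 9 measured members (5 lower and 4 higher in the full treatment), as they were for 76.8% of all genes.

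**Figure D2:**
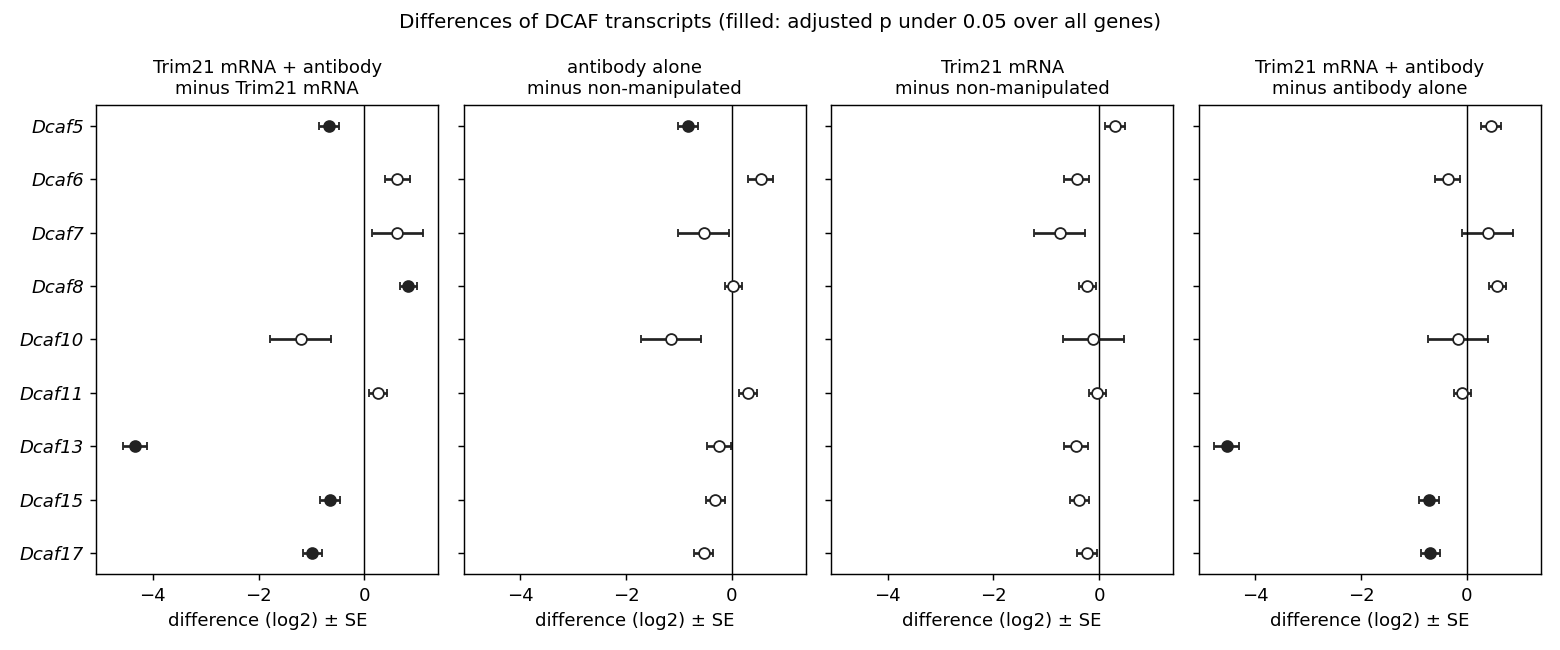
Log2 difference of deposited levels (x axis) for the 9 measured DCAF genes (rows) in each comparison except the interaction (panels). Points are differences from the limma fit, bars are ± 1 SE and filled points have an adjusted p under 0.05. Dcaf13 stands at −4.34 and −4.54 in the comparisons of the full treatment and at −0.235 in antibody alone against non-manipulated embryos, and Trim21 mRNA against non-manipulated embryos has no filled point.

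In antibody alone against non-manipulated embryos, the comparison of the antibody without supplied TRIM21, 1 member fell, none rose and 8 did not pass the test. Dcaf5 fell by 0.83 ± 0.19 (adjusted p = 0.040), with both antibody-alone pools below both non-manipulated pools. Over all genes 10.0% were called (2.76% higher and 7.29% lower). The fit of the 15351 genes at or above the median level called 3494 genes (878 higher and 2616 lower) and 1 member. The members' median difference was −0.31, against 0.18 over all genes. The Dcaf5 difference was −0.46 after quantile normalization, where it did not pass the test (adjusted p = 0.085). It also missed the threshold without antibody-alone replicate 1 (adjusted p = 0.056) and without any 1 of the Trim21 mRNA or non-manipulated arrays (adjusted p from 0.101 to 0.254).

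Dcaf13 did not pass the test in that comparison (−0.235 ± 0.23, 95% CI −0.78 to 0.31, adjusted p = 0.49), and its sign turned to 0.12 after quantile normalization and 0.059 after loess. Dcaf17 was at −0.53 ± 0.18 (adjusted p = 0.12) and passed after median centring, at −0.665 with an adjusted p of 0.042. Dcaf10 (−1.15 ± 0.58, adjusted p = 0.24) and Dcaf7 (−0.53 ± 0.48, adjusted p = 0.46) had the widely spaced antibody-alone pools described above. Without antibody-alone replicate 2 the differences were −2.135 for Dcaf10 and −1.345 for Dcaf7, and without replicate 1 they were −0.165 and 0.285. Dcaf6 (0.55), Dcaf11 (0.305), Dcaf15 (−0.31) and Dcaf8 (0.025, and −0.11 after median centring) had adjusted p-values between 0.19 and 0.92 as deposited. The pools did not overlap for 6 of the 9 members, and for 61.1% of all genes.

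For Trim21 mRNA alone, set against non-manipulated embryos, the limma test called none of the 9 measured members, and at an unadjusted p under 0.05 the count was also 0. The spread in this test is shared with the antibody-alone pools, which stood far apart. The differences ran from −0.75 (Dcaf7) to 0.30 (Dcaf5), with a median of −0.23 against 0.04 over all genes. A single gene was called, the injected Trim21 itself (3.995 ± 0.26, adjusted p = 0.0477), which is 0.00326% of all genes, while 1928 genes had an unadjusted p under 0.05. Dcaf13 differed by −0.435 ± 0.23 (95% CI −0.98 to 0.11, adjusted p = 0.89). With a fit of these 2 groups only, Dcaf7 passed (−0.75, adjusted p = 0.040) and 2520 of all genes were called (880 higher and 1640 lower). The pools did not overlap for 8 of the 9 members (7 lower and 1 higher), against 60.6% of all genes.

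The full treatment against antibody alone asks what the mRNA added where antibody was present in both, and it shares the full-treatment pools with the first comparison. Here 3 members fell and none rose, at a median of −0.165 against 0.045 over all genes, of which 14.9% were called (4.37% higher and 10.5% lower). The fit of the 15351 genes at or above the median level called 4596 genes (1150 higher and 3446 lower) and 4 members (1 higher and 3 lower). Dcaf13 fell by 4.54 ± 0.23 (95% CI −5.09 to −3.99, adjusted p = 0.000158), a fold of 23.3 as deposited and number 13 from the largest fall. Its difference was −3.95 after quantile normalization and −3.76 after loess. Dcaf15 (−0.715 ± 0.19, adjusted p = 0.0455) and Dcaf17 (−0.685 ± 0.18, adjusted p = 0.0487) fell as well. Both of these calls were lost when any 1 of the full-treatment, Trim21 mRNA or non-manipulated arrays was left out (adjusted p from 0.104 to 0.161), and Dcaf17 also missed the threshold after quantile normalization (adjusted p = 0.056) and loess (adjusted p = 0.108). The members' split was 2 higher and 2 lower after quantile normalization, with a median of 0.013.

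Dcaf8 was at 0.58 ± 0.16 (adjusted p = 0.058) and Dcaf5 at 0.455 ± 0.19 (adjusted p = 0.18) in that comparison. After quantile normalization both passed, at 1.10 for Dcaf8 and 1.16 for Dcaf5. Dcaf7 (0.40), Dcaf11 (−0.08), Dcaf10 (−0.165) and Dcaf6 (−0.355) did not pass, and their pools overlapped. The signs of Dcaf11 (0.013), Dcaf10 (0.074) and Dcaf6 (0.0091) turned after quantile normalization, and that of Dcaf10 (0.084) also after loess. The pools of the other 5 members did not overlap, as for 45.7% of all genes.

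The test of whether the antibody difference with Trim21 mRNA differed from that without it called Dcaf13 alone of the 9 members. The interaction for Dcaf13 was −4.105 ± 0.33 (95% CI −4.88 to −3.33, adjusted p = 0.0036), number 21 from the lowest of 30700 genes, of which 4.08% were called (0.625% higher and 3.46% lower). It was −3.64 after quantile normalization and −3.39 after loess. The fit of the 15351 genes at or above the median level called 1524 genes (231 higher and 1293 lower) and, of the members, Dcaf13 alone. Dcaf8 came next by p (0.805 ± 0.23, adjusted p = 0.13) and passed after quantile normalization (1.16, adjusted p = 0.020). Without antibody-alone replicate 2 the interaction was 0.96 for Dcaf8 and 1.965 for Dcaf7, and without antibody-alone replicate 1 it was 0.65 and 0.335. The interaction ranged from −0.455 (Dcaf17) to 1.15 (Dcaf7) in the members other than Dcaf13, with adjusted p-values from 0.13 to 0.99.

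**Figure D3:**
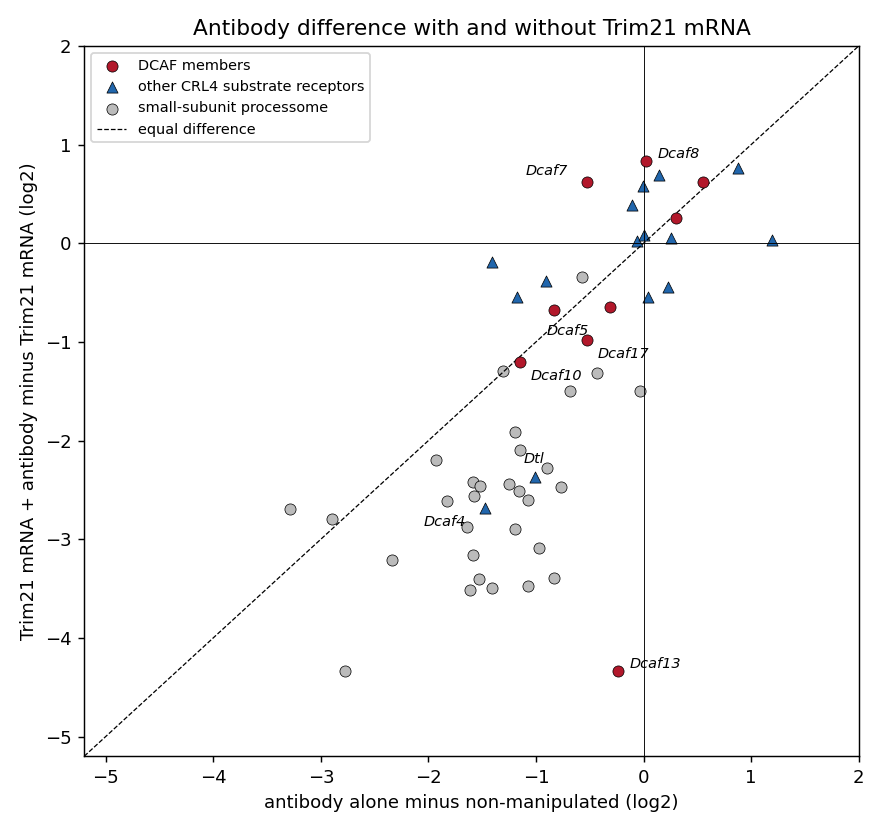
Log2 difference of the full treatment from Trim21 mRNA (y axis) against that of antibody alone from non-manipulated embryos (x axis). Each point is 1 gene: red for the 9 measured DCAF genes, blue triangles for 15 other cullin-4 receptors and grey for 30 small-subunit processome genes. The dashed line marks equal differences. Dcaf13 lies at −4.34 on the y axis and −0.235 on the x axis, far below the line, and the vertical distance of the other members from it is at most 1.15.

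The genes of the small-subunit processome, the particle in which the yeast counterpart of Dcaf13 works, also fell in the full treatment. Of 32 listed genes 30 were measured on clusters of their own. The lowest mean level in the list was 7.39 (Dhx37), and a fit of the 15351 genes at or above the median level called 4616 genes lower against Trim21 mRNA. Against Trim21 mRNA, where 14.5% of all genes were called lower, 28 fell and none rose (median −2.585, range −4.335 to −0.34). The examples with the smallest p were Nop14 (−3.39 ± 0.16), the box C/D snoRNP core protein Nop58 (−3.47 ± 0.17) and the rRNA 2′-O-methyltransferase Fbl (−3.165 ± 0.17), each with an adjusted p under 0.05 in limma (from 6.5e-05 to 7.9e-05). Quantile normalization left 24 lower and a median of −1.91. The list was chosen with results of these data known.

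In antibody alone against non-manipulated embryos, where 7.29% of all genes were called lower, 16 processome genes fell and none rose (median −1.28). Among them were Pwp2 (−2.895 ± 0.17, adjusted p = 0.0018), Fbl (−1.59 ± 0.17) and Rcl1 (−1.58 ± 0.20). Both antibody-alone pools lay below both non-manipulated pools for 28 of the 30 genes, and pools did not overlap for 61.1% of all genes. The Dcaf13 pools of those groups overlapped. After quantile normalization 10 processome genes were called lower in that comparison. The fit of the 15351 genes at or above the median level called 2616 genes lower there. Nop14, for example, was at log2 7.72 and 7.46 in full-treatment pools, 11.04 and 10.92 in Trim21 mRNA pools, 10.65 and 10.65 in antibody-alone pools and 11.43 and 11.54 in non-manipulated pools. Pwp2 was at 6.31 and 6.44 in full-treatment pools, 9.28 and 9.06 in Trim21 mRNA pools, 6.41 and 6.68 in antibody-alone pools and 9.43 and 9.45 in non-manipulated pools. Pwp2 was thus low in both antibody groups and Dcaf13 in the full treatment, and whether Dcaf13 differs from the list was not tested.

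Against antibody alone, where 10.5% of all genes were called lower, 18 processome genes fell in the full treatment (median −1.24, and 16 genes at a median of −0.82 after quantile normalization). Nop14 (−3.06 ± 0.16), Nop58 (−2.875 ± 0.17) and Fbl (−2.20 ± 0.17) were first by p. The interaction, which called 3.46% of all genes lower, called 7 of the list lower and none higher (median −1.215). First were Nop14 (−2.555 ± 0.22, adjusted p = 0.0041), Nop58 (−2.395 ± 0.24, adjusted p = 0.0057) and Bms1 (−1.71 ± 0.22, adjusted p = 0.010, and 0.053 after loess). After quantile normalization the interaction called 6. The fit of the 15351 genes at or above the median level called 3446 genes lower against antibody alone and 1293 in the interaction. The lowest interaction in the list was that of Nop14, and Dcaf13 was at −4.105. With Trim21 mRNA alone against non-manipulated embryos no processome gene was called, and 5 had an unadjusted p under 0.05.

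**Figure D4:**
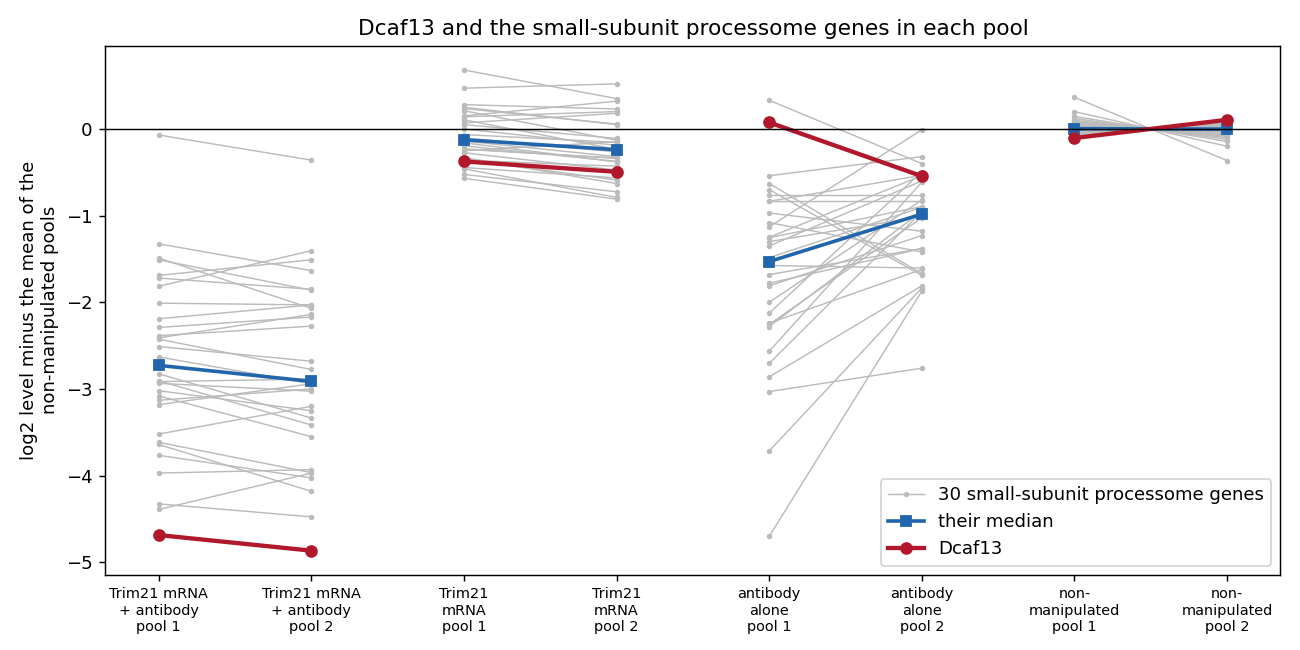
Log2 level of each pool minus the mean of the non-manipulated pools (y axis) for Dcaf13, for 30 genes of the small-subunit processome and for their median, by pool in the order full treatment, Trim21 mRNA, antibody alone and non-manipulated (x axis); lines join the pools of a group, grey for single processome genes, blue for their median and red for Dcaf13. In both full-treatment pools Dcaf13 lies below the 30 genes, and in both antibody-alone pools it lies above their median.

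For the 2 members whose group means spanned the widest range, the genes with the most similar 8 levels were sought by the root mean square difference after each gene was set to its own mean, over 8783 genes. For Dcaf13 (group means spanning 4.775) these were Dppa4 (0.232), a chromatin protein of early embryos, Psmd12 (0.271), a subunit of the proteasome lid, and Znhit6 (0.272), a factor for box C/D snoRNP assembly. Dppa4 was at log2 7.25 and 7.12 in full-treatment pools, 11.45 and 11.18 in Trim21 mRNA pools, 11.34 and 11.00 in antibody-alone pools and 11.84 and 11.71 in non-manipulated pools. Like Dcaf13, its full-treatment pools stood apart from the other 6. For Dcaf10 (spanning 1.315) they were the splicing-associated U2surp (0.130), the processome gene Utp25 (0.145) and Enoph1 (0.170), an enzyme of methionine salvage. They were picked for their likeness over all 8 levels, and U2surp was at 9.80 and 11.39 in the antibody-alone pools.

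The ligase core on which DCAFs sit had a called gene in 1 of the 5 comparisons. Of its 6 genes 5 were measured, since the cluster of Rbx1 also names Rbx1-ps. Cul4b was at log2 11.76 and 11.25 in full-treatment pools, 11.65 and 11.29 in Trim21 mRNA pools, 12.52 and 12.39 in antibody-alone pools and 12.07 and 12.03 in non-manipulated pools. The antibody-alone pools were the highest, and Cul4b was lower in the full treatment than in antibody alone (−0.95 ± 0.22, adjusted p = 0.030), a call lost after quantile normalization (−0.22, adjusted p = 0.48) and loess (−0.23, adjusted p = 0.46). As deposited, 14.9% of all genes were called in that comparison, 10.5% of them as lower.

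Ddb1, the adaptor, was at log2 13.36 and 12.82 in full-treatment pools, 12.08 and 12.06 in Trim21 mRNA pools, 12.54 and 11.55 in antibody-alone pools and 12.17 and 12.14 in non-manipulated pools. Its full-treatment pools were the highest 2, with a difference of 1.02 ± 0.33 from Trim21 mRNA that did not pass (adjusted p = 0.070). Cul4a differed by 0.16 from Trim21 mRNA (adjusted p = 0.51). After quantile normalization 3 of the 5 core genes were called higher in that comparison, as were 3490 of all 30700 genes. In the full treatment against antibody alone 2 core genes and 2436 of all genes were called higher after quantile normalization.

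Of the 15 other cullin-4 receptors, all measured, 1 rose and 2 fell in the full treatment against Trim21 mRNA (median 0.025), where 23.2% of all genes were called. After quantile normalization the split was 5 higher and 1 lower (median 0.36). Dtl, the receptor CDT2 that clears CDT1, p21 and SET8, was at log2 9.98 and 10.03 in full-treatment pools, 12.51 and 12.24 in Trim21 mRNA pools, 11.54 and 12.20 in antibody-alone pools and 12.94 and 12.82 in non-manipulated pools. It fell by 2.37 ± 0.24 against Trim21 mRNA (adjusted p = 0.000626) and the difference of antibody alone from non-manipulated embryos was −1.01 ± 0.24 (adjusted p = 0.044, but 0.105 after quantile normalization and 0.089 after loess). Dcaf4 fell by 2.68 ± 0.77 against Trim21 mRNA (adjusted p = 0.048, but between 0.053 and 0.087 under the 3 other scalings), with antibody-alone pools at 6.84 and 9.64. Fbxw5 rose by 0.765 ± 0.16 in the full treatment against Trim21 mRNA (adjusted p = 0.015, and 0.064 after median centring) and by 0.875 ± 0.16 in antibody alone against non-manipulated embryos (adjusted p = 0.021).

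Ambra1, the receptor for D-type cyclins, followed another order. It was at log2 12.49 and 11.91 in full-treatment pools, 12.41 and 12.37 in Trim21 mRNA pools, 10.84 and 10.69 in antibody-alone pools and 12.24 and 12.11 in non-manipulated pools. It fell by 1.41 ± 0.21 in antibody alone against non-manipulated embryos (adjusted p = 0.012), where the receptor list had 1 higher and 2 lower (1 and 1 after quantile normalization). Over all genes 10.0% were called in that comparison. In the full treatment against antibody alone, where 14.9% of all genes were called, the list had 2 higher and 3 lower (3 and 1 after quantile normalization). Dtl at −1.865, Ambra1 at 1.435 and Dcaf12l1 at 0.895 were first by p in the list. The mean level of Dcaf12l1, 4.66, lay in the range of the sperm and blood marker medians, and no detection call was used here, so its 0.895 is not shown to be above background. The interaction called none of the 15, with 4 at an unadjusted p under 0.05, and 2 higher after quantile normalization.

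In the full treatment against Trim21 mRNA 23.2% of all genes were called (8.72% higher and 14.5% lower). Of the neddylation and receptor-exchange genes (14 of 15 measured), 2 rose and 5 fell there (median −0.1975). Nedd8 itself was at log2 10.50 and 10.02 in full-treatment pools, 13.35 and 13.15 in Trim21 mRNA pools, 12.71 and 13.32 in antibody-alone pools and 13.79 and 13.89 in non-manipulated pools. Nedd8 (−2.99 ± 0.26), the RING protein Rnf7 (−2.33 ± 0.21) and the exchange factor Cand1 (−2.35 ± 0.27) fell against Trim21 mRNA (adjusted p from 0.00032 to 0.0011). In antibody alone against non-manipulated embryos, the NEDD8-activating enzyme subunits Nae1 (0.895 ± 0.18) and Uba3 (1.07 ± 0.24) rose and Dcun1d2 fell (−0.82 ± 0.16). The split was 4 higher and 0 lower after quantile normalization, where Dcun1d2 did not pass (adjusted p = 0.11, and 0.071 after loess), and Nae1 did not pass after median centring (adjusted p = 0.065). Over all genes 10.0% were called in antibody alone against non-manipulated embryos, as deposited.

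Against antibody alone, where 10.5% of all genes were called lower, 6 neddylation genes fell in the full treatment and none rose. Nedd8 was at −2.755, Cand1 at −1.96 and Rnf7 at −1.70 (adjusted p = 0.053 after loess). After quantile normalization 1 gene of this list was higher and 5 lower. The interaction, which called 4.08% of all genes, called Nedd8 (−2.165 ± 0.36, adjusted p = 0.025) and Rnf7 (−1.575 ± 0.30, adjusted p = 0.038, but from 0.051 to 0.30 under the 3 other scalings). In the full treatment against Trim21 mRNA the split of this list was 5 higher and 4 lower after quantile normalization, and its median turned to 0.30.

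In the full treatment against Trim21 mRNA, 23.2% of all genes were called (14.5% lower). Of the 10 COP9 signalosome subunits, 3 fell there and none rose (median −0.7125, and 0.14 after quantile normalization). They were Cops6 (−2.785 ± 0.16, adjusted p = 8.3e-05), Cops4 (−1.07 ± 0.17, adjusted p = 0.0043) and Cops3 (−0.755 ± 0.16, adjusted p = 0.017). Cops4 and Cops3 did not pass after quantile normalization or loess, and under quantile normalization Cops3 turned to 0.033. In antibody alone against non-manipulated embryos Cops6 fell (−0.865 ± 0.16, adjusted p = 0.020, but 0.122 after quantile normalization and 0.090 after loess) and Cops3 was at −0.655 (adjusted p = 0.053). The full treatment against antibody alone called 3 lower, Cops6 (−1.925), Cops9 (−2.045) and Cops4 (−0.77). After quantile normalization 2 were higher and 2 lower there (median −0.023), and Cops4 did not pass (−0.11, adjusted p = 0.63). The interaction called Cops6 (−1.92 ± 0.22, adjusted p = 0.0076). Over all genes 10.0% were called in antibody alone, 14.9% in the full treatment against antibody alone and 4.08% in the interaction.

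Among known substrates or partners of DCAFs, 14 of 15 were measured, Suv39h1 not being found among the genes tested. In the full treatment against Trim21 mRNA, where 14.5% of all genes were called lower, 7 fell and none rose (median −0.89). After quantile normalization the split was 2 higher and 6 lower. First by p were the chaperonin subunit Cct5 (−2.715 ± 0.22), the nucleolar helicase Ddx21 (−4.91 ± 0.40) and Trim28, which Dcaf11 is known to target (−1.85 ± 0.20), with adjusted p-values from 0.00025 to 0.00095. Trim28 was at log2 9.90 and 9.40 in full-treatment pools, 11.54 and 11.46 in Trim21 mRNA pools, 11.15 and 10.93 in antibody-alone pools and 11.64 and 11.51 in non-manipulated pools, and these are mRNA levels, whereas ligases act on proteins.

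In antibody alone against non-manipulated embryos, where 7.29% of all genes were called lower, 4 of these genes fell and none rose. First were Cct5 (−1.475 ± 0.22), Ddx21 (−2.685 ± 0.40) and the replication licensing factor Cdt1 (−0.825 ± 0.18). The Cdt1 call was lost after quantile normalization (adjusted p = 0.26) and loess (adjusted p = 0.21), and 2 genes of the list were lower after quantile normalization. The full treatment against antibody alone, where 14.9% of all genes were called, had 1 higher and 4 lower, first Trim28 (−1.39 ± 0.20), Cct5 (−1.43 ± 0.22) and Ddx21 (−2.54 ± 0.40). After quantile normalization the split was 3 higher and 3 lower, and the median turned from −0.2475 as deposited to 0.16. The interaction called none of the 14, with 5 at an unadjusted p under 0.05, and 1 higher after quantile normalization. With Trim21 mRNA against non-manipulated embryos no gene of the core, receptor, neddylation, COP9 or substrate lists was called, and 7 of them had an unadjusted p under 0.05.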

How the data were processed

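RNA of pooled 2-cell embryos was labelled with a GeneChip WT Pico kit, per the labels' protocols, and Affymetrix Expression Console was used, per the submitters' processing notes. Summarisation method and genome build: not given in the sources used here. The deposited values are log2 levels per transcript cluster. The non-manipulated replicate 1 column is read as a deposited score because 1 cell exceeds 100. That cluster was dropped, and the rest of the column is on the log2 scale. Of 65956 clusters, 65955 were used; 31257 named 1 gene, 1492 several and 33206 none. For 442 genes on several clusters the highest mean was taken, which left 30700 genes.

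The 4 group means were fitted to all 8 arrays with limma 3.58.1 in R 4.3.3 (lmFit, eBayes, two-sided; 4 residual and 6.83 total degrees of freedom; median SE 0.219), with Benjamini-Hochberg adjustment over all genes within each of 5 comparisons. No filter or further normalization was applied. The number of arrays limits the precision. Alternatives were quantile, median and loess scaling, a filter at the median level of 5.4975, which all 9 members passed, another variance prior, fits of the groups compared only, averaging the clusters of each gene, a replicate block and each array left out. Members and lists were chosen with earlier results of these data known. All members were named, and of each list up to 3 called genes with the smallest p. Cops3, Trim21, Cul4a, Cul4b, Ddb1 and Rbx1 were named whether called or not, though not in every comparison.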

Additional observations from a re-analysis of the deposited data

Results flagged for a closer look

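The Dcaf13 difference between embryos with and without antibody was −4.34 ± 0.23 with Trim21 mRNA (full treatment against Trim21 mRNA) and −0.235 ± 0.23 without it (antibody alone against non-manipulated). The test of the difference between these differences, the interaction term in limma, gave −4.105 ± 0.33 (adjusted p = 0.0036), and 4.08% of all genes passed that test. The 4 groups were treated on 4 days, so the interaction cannot be told apart from a difference between days.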

How the results depend on the processing

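The 3 calls of Dcaf13 held under every alternative that was run: −4.55 to −3.33 in 17 of 17 settings for the full treatment against Trim21 mRNA, −4.85 to −3.76 in 16 of 16 against antibody alone and −4.42 to −3.39 in 15 of 15 for the interaction. Leaving out each array in turn moved the members called between 1 and 7 for the full treatment against Trim21 mRNA (5 as reported), 0 and 4 for antibody alone (1), 0 and 0 for Trim21 mRNA alone (0), 1 and 5 in full treatment against antibody alone (3), and 1 and 3 for the interaction (1). In the same order the genes called ranged from 3366 to 14192 (7125), 94 to 13792 (3083), 0 to 1 (1), 2490 to 10443 (4560) and 99 to 5663 (1253). The high counts came without an antibody-alone array (without replicate 2: 14192, 13792, 1, 8449 and 5663). The low counts came without Trim21 mRNA replicate 1 (3366), non-manipulated replicate 1 (94), full-treatment replicate 2 (2490) or non-manipulated replicate 2 (99). Fits of the compared groups alone called 10891 genes in the full treatment against Trim21 mRNA and 1408 against antibody alone (1 member), 2520 for Trim21 mRNA alone (1 member, Dcaf7) and 0 for antibody alone (0 members). Without the antibody-alone group, chosen after seeing the data, 14192 genes were called in the full treatment against Trim21 mRNA. The single gene called for Trim21 mRNA alone was lost (0 genes) under quantile, loess and median scaling, the trended prior and the replicate block. For antibody alone, the members called were 2 under median centring and 0 under quantile scaling, the trended prior and the replicate block. The interaction called 2 members under quantile and loess scaling.

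The replicate block left 3 members called in the full treatment against Trim21 mRNA and 1 against antibody alone. Same-numbered pools did not deviate together (correlations from −0.191 to 0.143), so the numbers were not taken as pairs. All-gene splits also moved with scaling: 1365 higher and 5167 lower under median centring and 3211 and 3644 under loess for the full treatment against Trim21 mRNA. Under quantile scaling the split was 1116 and 1362 for antibody alone (846 and 2237 as deposited), 2436 and 2540 in full treatment against antibody alone (1343 and 3217), and 652 and 785 for the interaction (192 and 1061).

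Signs that turned under quantile scaling were Dcaf5 in the full treatment against Trim21 mRNA (0.27), Dcaf13 in antibody alone (0.12), Dcaf10 (0.035) and Dcaf11 (0.028) in Trim21 mRNA alone, Dcaf6 (0.0091), Dcaf10 (0.074) and Dcaf11 (0.013) in the full treatment against antibody alone, and Dcaf10 in the interaction (0.039). Under loess they were Dcaf5 (0.26), Dcaf13 (0.059), Dcaf10 (0.017) and Dcaf11 (0.069), and Dcaf10 against antibody alone (0.084) and in the interaction (0.067). Under median centring Dcaf8 turned in antibody alone (−0.11). Leaving out 1 array turned signs too. In antibody alone Dcaf7 ranged from −1.345 to 0.285, Dcaf8 from −0.13 to 0.18 and Dcaf13 from −0.545 to 0.075. In the full treatment against antibody alone Dcaf7 ranged from −0.415 to 1.215, Dcaf10 from −1.15 to 0.82 and Dcaf11 from −0.25 to 0.09. In the interaction Dcaf5 ranged from −0.075 to 0.385, Dcaf6 from −0.28 to 0.42, Dcaf10 from −1.035 to 0.935 and Dcaf11 from −0.215 to 0.125. The cause of these changes was not tested. With 2 pools a group, an array left out leaves a lone pool that is assumed to vary like the others.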
